A study of Mus musculus with 3 samples.

Results

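Immediate-early genes are the transcripts that neurons make within minutes of strong activity, without first making new protein. The values here are those of 10 of them in the CA1 field of the mouse hippocampus: the transcription factor genes Egr1, Egr2, Egr3 and Klf4, the nuclear receptor genes Nr4a1 and Nr4a2, the synaptic effector genes Arc and Homer1, and the growth and nuclear regulator genes Btg2 and Ier2. The members were all probe sets that the platform annotation assigned to exactly 1 gene of that list. This gave 12 of the 12488 probe sets in the table, for 8 of the 8251 genes it names. Egr3 and Arc had no probe set by that rule and were not analysed here. Egr1, Nr4a2, Homer1 and Klf4 had more than 1 probe set each, and Egr2, Nr4a1, Btg2 and Ier2 had 1.

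All samples were of 1 kind: CA1 from C57BL/6J mice, young males of an inbred strain, taken 6 h after contextual fear conditioning, in which an animal comes to link a place with a foot shock. Mice explored an unfamiliar chamber for 2 min, received a shock of 1 s at 0.5 mA through the floor, went through this cycle 3 times, and went back to their home cage 1 min later. Total RNA was read on 3 replicate arrays, numbered 1, 2 and 3 as in the labels. Nothing in the labels tells if 1 animal or several gave the RNA of an array, so part of the spread may be technical. There was no unconditioned group, so a level below is a level at 6 h and not a response to training.

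Signals are on the deposited linear scale, as mean ± SD over the 3 arrays. A signal above 174.8, the median of all deposited values, is called above threshold, and a probe set whose mean passes it is called measured. A transcript whose signal is lower may still be present, and levels of different probe sets were not ranked against each other, because a probe set's brightness depends on its own probes. In whole tissue, fewer cells of a type and less RNA per cell cannot be told apart.

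Facts that hold for the arrays as a whole bear on every value. The median signal was 176, 177 and 171 on arrays 1, 2 and 3. The ratio of 3′ to 5′ signal of the Gapdh control probe sets was 3.99, 1.21 and 3.94, and that of Actb was 2.57, 1.86 and 3.50. This ratio reflects RNA and labelling quality, and array 2 stood apart in it for Gapdh, while for Actb the 3 arrays were spread out with array 2 lowest. Markers of the labelled field were present: 4 of the 4 CA1 pyramidal genes represented passed the threshold on every array, with the wolframin gene Wfs1 at 2522 ± 66.0. The astrocyte and microglia lists were above threshold on every array for 5 of 5 and 5 of 5 genes. The dentate granule list was so for 2 of 5, Calb1 at 1563 ± 133 and Dsp at 225 ± 56.8. Its defining factor Prox1 was under threshold, at 28.4 ± 18.7, as were Tdo2 and Npnt. The CA3 and CA2 list was so for 4 of 6 and the endothelial and pericyte list for 2 of 7. The choroid plexus list was so for 1 of 4, the klotho gene Kl. These lists take each gene at its brightest probe set. Of all probe sets that are no array control, 43.9% were above threshold on every array, a share that does not rest on the brightest. Counts near that share say little of cell content.

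As background, immediate-early genes are switched on by kinases that act on factors already bound at their promoters. Serum response factor binds the CArG box and CREB binds the cyclic AMP response element (CRE), and in many cells their transcripts appear and decay within hours. Egr and Klf4 proteins bind GC-rich DNA through zinc fingers, Nr4a proteins are orphan nuclear receptors that can bind DNA as monomers, and in the hippocampus Egr1, Nr4a, Arc and Homer1 are widely used as markers of recently active neurons and have been studied in memory.

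The upstream sequences were searched for control elements known from this class of genes. RefSeq promoter windows (GRCm38.p6) were searched for 6 of the 10 genes, in 11 windows of different start sites. The 250 bases before each start were read on both strands. No window of Egr1, Egr3, Arc or Ier2 was searched. Member windows were first filtered by chromosome, while the windows of all genes used for comparison were not. A member that was not searched may therefore have had a window. Shown are the windows of Nr4a1, Nr4a2 and Btg2, the members above threshold on all arrays whose windows were searched. The third window of Egr2 is also shown, chosen after the search because it holds a CArG box. Sequences run 5′ to 3′ toward the start site, and capitals mark the motifs found.
Nr4a1, chr15:101266596-101266845, plus strand: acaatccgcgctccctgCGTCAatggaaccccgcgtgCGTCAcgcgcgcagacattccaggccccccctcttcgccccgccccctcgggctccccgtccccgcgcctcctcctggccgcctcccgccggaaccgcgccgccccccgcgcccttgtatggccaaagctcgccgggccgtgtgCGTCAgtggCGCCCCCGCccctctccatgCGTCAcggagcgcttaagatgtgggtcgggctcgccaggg
Nr4a2, chr2:57124004-57124253, minus strand: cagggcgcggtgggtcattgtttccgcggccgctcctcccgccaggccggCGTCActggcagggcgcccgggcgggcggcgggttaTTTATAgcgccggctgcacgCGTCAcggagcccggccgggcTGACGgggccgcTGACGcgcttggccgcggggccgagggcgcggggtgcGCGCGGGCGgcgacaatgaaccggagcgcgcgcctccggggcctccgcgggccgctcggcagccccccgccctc
Btg2, chr1:134079156-134079405, minus strand: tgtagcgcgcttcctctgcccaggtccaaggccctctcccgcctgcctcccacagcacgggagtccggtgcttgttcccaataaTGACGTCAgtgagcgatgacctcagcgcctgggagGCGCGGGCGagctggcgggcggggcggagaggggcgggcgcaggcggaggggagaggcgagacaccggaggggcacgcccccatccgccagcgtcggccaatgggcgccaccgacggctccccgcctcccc
Egr2, chr10:67537619-67537868, plus strand: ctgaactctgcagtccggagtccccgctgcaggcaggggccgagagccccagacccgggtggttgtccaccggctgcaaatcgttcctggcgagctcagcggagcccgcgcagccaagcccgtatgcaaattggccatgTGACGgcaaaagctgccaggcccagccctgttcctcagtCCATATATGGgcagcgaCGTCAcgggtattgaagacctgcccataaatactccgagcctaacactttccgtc

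The searched motifs were the CArG box, the full CRE (TGACGTCA), the CRE core (TGACG, which the full CRE holds on both strands), the Egr site (GCGNGGGCG), the monomer site of Nr4a receptors (AAAGGTCA) and a TATA box (TATAAA). A CRE core was found upstream of 6 of 6 genes, while 19.8% of all 27025 genes have one. By window it was 8 of 11, against 17.8% of all 32851, but 3 of the 8 are overlapping Egr2 windows that hold the same 2 cores. Nr4a1 held 4 cores and so did Nr4a2, and the first Homer1 window held 3. The full CRE was found in Btg2, from -166 to -159, against 1.55% of all windows. An Egr site was found in 4 of 11 windows, those of Nr4a1, Nr4a2, Btg2 and Klf4, against 4.70% of all windows. The CArG box was found in 4 of the 5 Egr2 windows, which overlap in part, against 1.47% of all windows. Windows 3, 4 and 5 hold the same box, so the 4 are not independent. By gene the box was found in 1 of 6, against 1.62% of all genes. It was in no window of the other genes searched, and Egr1 was not searched. In the Egr2 window shown it lies from -72 to -63. A TATA box in reverse was found in 1 window, that of Nr4a2, from -164 to -159, against 12.4% of all windows. The Nr4a monomer site was found in 0 of the 11 windows, against 1.34% of all. The member windows were rich in G and C, with a median of 62.4% against 52.4% over all windows. The 4 windows with an Egr site were richer, at 74.4% for Nr4a1, 80% for Nr4a2, 73.2% for Btg2 and 74% for Klf4. The 75th percentile over all windows was 61.2%. Motifs with CG are commoner in such DNA. A match is a string of letters and says nothing about binding at 6 h.

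**Figure D1:**
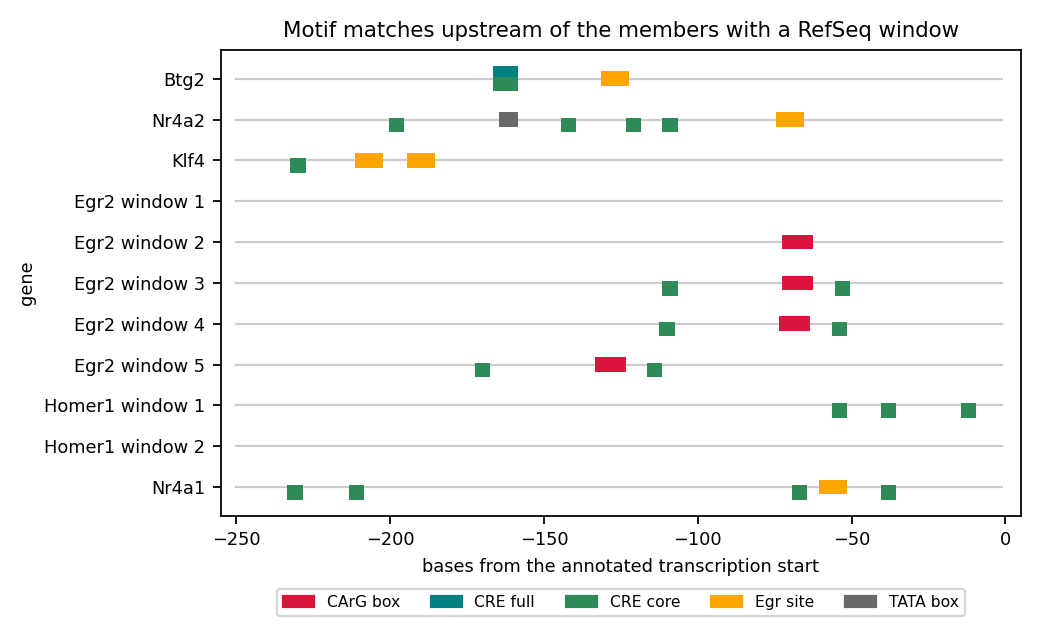
Positions of motif matches in the 250 bases before each annotated start, for the 11 RefSeq windows of 6 member genes; the x axis is the distance from the start in bases and each coloured box is 1 match on either strand. CRE cores appear in 8 of 11 windows, Egr sites in 4, and the CArG box is found in Egr2 windows alone among these genes.

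Egr1, also called Zif268, encodes a zinc finger factor that is abundant in unstimulated forebrain neurons and rises further with activity. Its brighter probe set gave 1511, 2019 and 1816 on arrays 1, 2 and 3, a mean of 1782 ± 256. All 3 arrays lay far above threshold, the mean at 10.2 times that value, and the arrays lay close together, with the highest 1.33-fold over the lowest after scaling. The dimmer Egr1 probe set gave 16.3, 64.7 and 163. It stayed under threshold on every array and lay above the highest bacterial control probe set on 1 array alone, so neither a fold nor an order of the arrays is read from it. The brighter probe set was lowest on array 1, as were the summed CA3 and CA2 markers, at 6281, 11453 and 7655 over 6 genes, of which Nnat gave 1042, 4862 and 885, and their part in the Egr1 values was not tested.

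Egr2, also called Krox20, encodes a related factor that also directs myelination in peripheral nerve. Its probe set gave 93.3, 158 and 122, a mean of 124 ± 32.6. All 3 arrays were under threshold, yet each lay above the highest of 15 bacterial control probe sets on the same array, which was 54.1, 115 and 55.6. Egr2 thus gave a weak signal over these controls on 3 of 3 arrays.

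Nr4a1, also called Nur77, encodes an orphan nuclear receptor that acts as a transcription factor. Its probe set gave 604, 464 and 728, a mean of 599 ± 132. Every array was above threshold, array 2 lowest and array 3 highest, with a log2 range of 0.70. Without array 2 that range was 0.32, without array 3 it was 0.38, and without array 1 it was 0.70.

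Nr4a2, also called Nurr1, is known above all for its role in midbrain dopamine neurons and is also expressed in hippocampus and cortex. The brighter of its probe sets gave 406.5, 749.5 and 317.5, a mean of 491 ± 228. Array 2 was the high one, and this was the measured member probe set with the widest log2 range, 1.19. The dimmer one gave 280, 398.5 and 211, a mean of 296 ± 94.8 and a log2 range of 0.87. Both probe sets were above threshold on every array and in the same order, highest on array 2 and lowest on array 3; the annotation lists the same source sequence for them, so they are not independent readings. Nr4a1, the relative, had the opposite order on these arrays. Without array 2 the log2 range of the brighter Nr4a2 probe set was 0.31, and without array 3 it was 0.88.

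Some other measures were also highest or lowest on array 2, where Nr4a2 was highest. The choroid plexus markers, 4 of 5 with a probe set and 2 measured, summed to 1800, 4874 and 612 on arrays 1, 2 and 3, with none listed at 0. The transthyretin gene Ttr gave 1334, 4257 and 94.2 of it. Ttr was the 1 measured probe set that passed the limma variance test described below, with an adjusted p of 0.049. That result depended on the processing. Under quantile normalization, cyclic loess or either other prior, 0 measured probe sets passed, and without array 3, 44 did. Aqp1, under threshold on every array, gave 160, 55.2 and 127. Of the 5 microglia markers, all measured, 4 were highest on array 2 and 1 on array 3. Of all measured probe sets, 33.2% were highest on array 2. The CA3 and CA2 markers, 6 of 6 with a probe set and 4 measured, were highest on array 2 in sum, at 6281, 11453 and 7655. The neuronatin gene Nnat gave 1042, 4862 and 885 of that sum, and none was listed at 0. Of the 4 measured, 2, Nnat and Nptx1, were highest on array 2, and 2, Bok and Rgs14, on array 3. The CA1 pyramidal markers summed to 7741, 6658 and 7080 and the dentate granule markers to 1936, 1904 and 2132.5, both lowest on array 2. The astrocyte markers summed to 20550, 19474 and 18736, lowest on array 3. The 3′ to 5′ ratio of Gapdh was lowest on array 2, at 1.21 against 3.99 and 3.94, and that of Actb was 1.86 there against 2.57 and 3.50. Their part in the Nr4a2 values was not tested.

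Homer1 encodes a scaffold that ties metabotropic glutamate receptors to other postsynaptic proteins, and its short form, Homer1a, is the one induced by activity. The brighter of its probe sets gave 106, 130.0 and 60.8, a mean of 98.9 ± 35.1, and the dimmer one gave 59.7, 32.5 and 16.3, a mean of 36.2 ± 21.9. Both were under threshold on every array. The brighter one lay above every bacterial control on 3 of 3 arrays and was lowest on array 3. The dimmer one did so on 1 array, so no order of the arrays is read from it. Which form each probe set reads is not given by the annotation, so no value was assigned to Homer1a.

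Btg2 encodes an antiproliferative protein that recruits the machinery that shortens mRNA tails. Its probe set gave 726.5, 621.5 and 587, a mean of 645 ± 72.7. It was above threshold on every array, highest on array 1, and had the narrowest log2 range of the measured member probe sets, 0.26.

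Ier2 encodes a small nuclear protein of the immediate-early response. Its probe set gave 254, 191 and 168, a mean of 204 ± 44.5. Arrays 1 and 2 were above threshold and array 3 was just under it, so Ier2 was measured on its mean but did not pass on all arrays.

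Klf4 encodes a zinc finger factor best known from stem cells and from blood vessel and gut lining cells. The brighter of its probe sets gave 141, 89.8 and 90.1, a mean of 107 ± 29.6, and the dimmer one gave 50.7, 40.6 and 4.20, a mean of 31.8 ± 24.5. Both were under threshold on every array. The brighter one lay above every bacterial control on 2 of 3 arrays and the dimmer one on 0, so no order of the arrays is read from them. The endothelial and pericyte markers, 7 of 9 with a probe set and 2 measured, summed to 1008, 1080 and 1346. Of the 2 measured, Cldn5 was highest on array 3 and Flt1 on array 2. Their part in the Klf4 values was not tested.

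**Figure D2:**
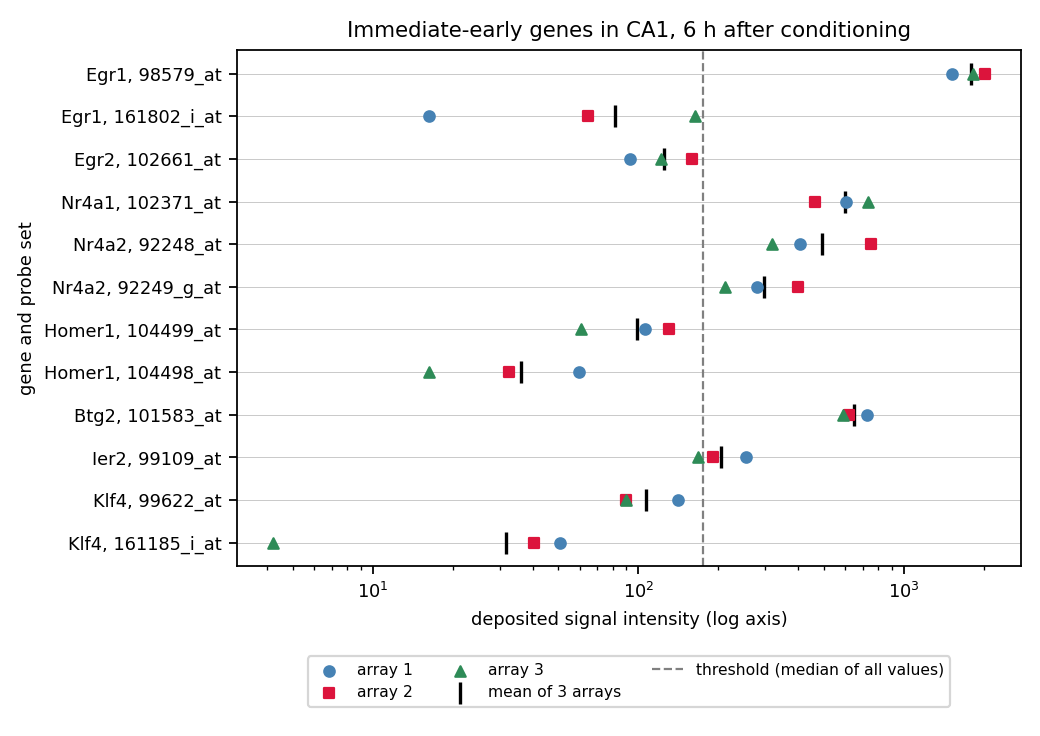
Deposited signal (log axis) of the 12 member probe sets on arrays 1, 2 and 3, with the mean over the arrays as a black bar and the threshold of 174.8 as a dashed line. The brighter Egr1 probe set, Nr4a1, both Nr4a2 probe sets and Btg2 lie above the line on every array, Ier2 on 2 arrays, and the other 6 probe sets on none.

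In all, 5 of 12 member probe sets were above threshold on every array, which is near the background, since 43.9% of the 12422 probe sets that are no array control were. They belong to 4 genes, Egr1, Nr4a1, Nr4a2 and Btg2. With Ier2, 6 probe sets of 5 genes were measured, against 50.1% of all probe sets. Of the 6 probe sets under threshold on all arrays, 2 exceeded the bacterial controls on every array, 3 on some arrays and 1 on none. Of the genes with more than 1 probe set, Homer1 and Klf4 were under threshold in both and Nr4a2 above it in both, and for Egr1 the choice of probe set decides whether the gene counts as measured.

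No measured member passed the test for varying between arrays more than probe sets of its level do. After scaling to a common median, 1 of 6, the brighter Nr4a2 probe set, had its highest and lowest arrays more than 2-fold apart, against 12.1% of all 6218 measured probe sets. The SD of log2 signal was 0.62 for that probe set, where the limma fit gave 0.29 for its level, and 0.44 for the dimmer Nr4a2 probe set, where the fit gave 0.34. It was 0.35 for Nr4a1 against a fitted 0.27, 0.21 for Egr1 against 0.24, 0.14 for Btg2 against 0.27 and 0.29 for Ier2 against 0.45. In the limma variance test, 0 of 6 member probe sets passed at an adjusted p of 0.05, and 0.0161% of all measured probe sets did. At an unadjusted p of 0.05, 0 of 6 passed as well, against 5.21% of all. The lowest was that of the brighter Nr4a2 probe set, with a limma p of 0.056 and an adjusted p of 0.944, and the adjusted p of the others lay between 0.988 and 0.993. A p that misses the threshold does not show that a gene was equal on the arrays. Without array 1 the log2 ranges of the brighter Egr1 probe set, Btg2 and Ier2 were 0.10, 0.03 and 0.14, against 0.41, 0.26 and 0.55 with all arrays. Array 1 was the lowest for Egr1 and the highest for Btg2 and Ier2. Leaving out such an array must narrow a range, as it does for arrays 2 and 3 in Nr4a1 and Nr4a2. These ranges therefore mark no array as deviant.

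**Figure D3:**
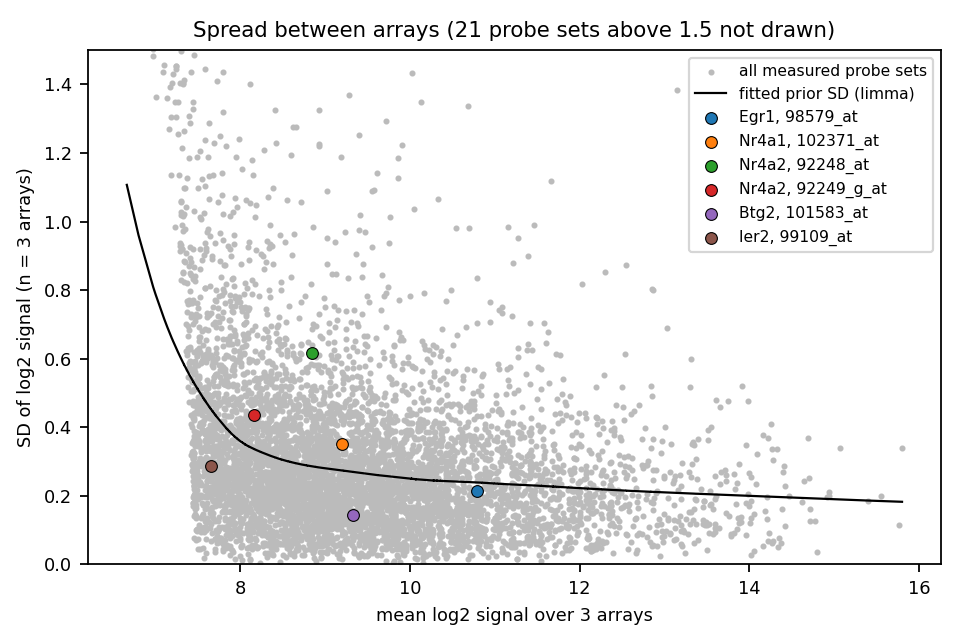
SD of log2 signal over the 3 arrays against mean log2 signal, for the 6218 measured probe sets (grey), the 6 measured member probe sets (coloured) and the SD fitted by limma at each level (line). Both Nr4a2 probe sets and Nr4a1 lie above the line, Egr1, Btg2 and Ier2 below it, and all lie inside the grey cloud.

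The members did not share an order over the arrays. Of the 6 measured probe sets, 2 were highest on array 1 (Btg2 and Ier2), 3 on array 2 (Egr1 and both of Nr4a2) and 1 on array 3 (Nr4a1). Over all measured probe sets, 29.3%, 33.2% and 37.5% were highest on arrays 1, 2 and 3. The lowest value was on array 3 for 4 of the 6, and the share over all probe sets was not taken for lowest values. Both Nr4a2 probe sets, which are not independent readings, enter the 3 and the 4. Each array's scaled log2 value was set against the mean over its 2 companions, and the median of that difference over the members was -0.02, 0.08 and -0.25 on arrays 1, 2 and 3, against 0.01, -0.05 and 0.05 over all measured probe sets. The median SD of log2 signal between arrays was 0.32 over the members and 0.25 over all measured probe sets.

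**Figure D4:**
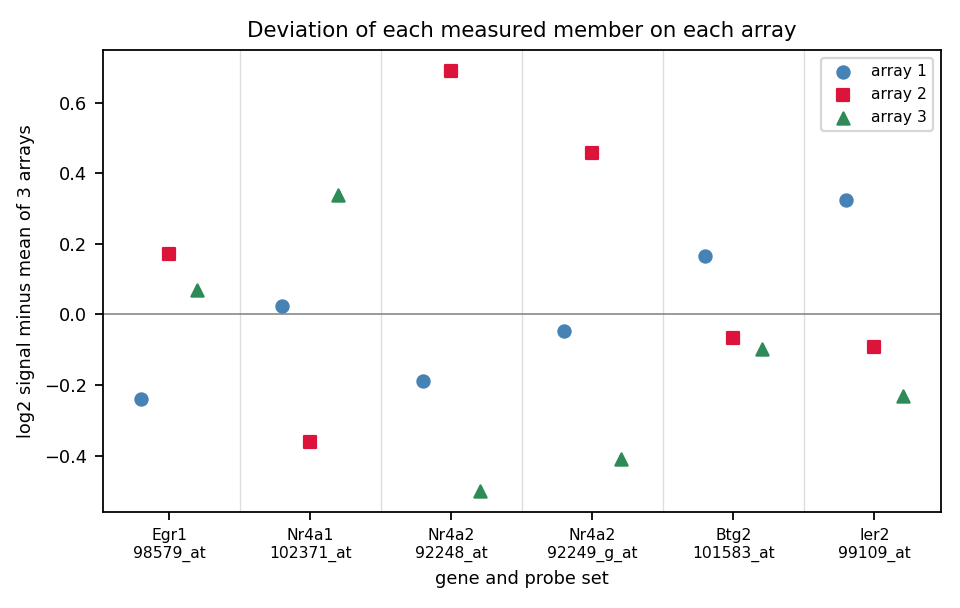
Scaled log2 signal minus the mean of the 3 arrays, for the 6 measured member probe sets; each point is 1 array. Nr4a2 is high on array 2 in both probe sets and Nr4a1 is low there, while Egr1, Btg2 and Ier2 stay within a narrower band.

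Likeness to other genes was taken as the distance between centred log2 values over the 3 arrays. Nearest to Egr1 were Ndufa3, which encodes a subunit of respiratory complex I, at 0.0026, Gng3, a G protein gamma subunit gene, at 0.0060, and Slc6a9, a glycine transporter gene, at 0.0080. Nearest to Nr4a2 were the actin capping gene Capzb at 0.026, the hexokinase gene Hk1 at 0.030 and Uqcrc1, which encodes a subunit of respiratory complex III, at 0.033. Within a distance of 0.2 lay 539 of 4875 genes for Egr1 and 44 for Nr4a2, so 3 arrays single out no particular gene.

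Among other immediate-early genes, 28 of the 38 listed had a probe set, and 18 of these, each at its brightest probe set, were above threshold on every array, against the 43.9% over all probe sets, a share that does not rest on the brightest of several. The relatives Nr4a3 and Egr4 had no probe set. The highest means, named by rule and not as a ranking of transcripts, were those of Jund, an AP-1 subunit gene, at 16694 ± 5329, the polo-like kinase gene Plk2 at 7509 ± 809 and the kinase gene Sgk1, a known glucocorticoid target, at 1377 ± 420.5. Fos, the classical activity marker, gave 200, 207 and 274, just above threshold on each array, and Fosb gave 484, 517 and 501. The phosphatase gene Dusp1, which shuts off MAP kinases, gave 779, 723 and 772, and the clock gene Per1 gave 428, 479 and 434. Fosb, Dusp1 and Per1 had log2 ranges of 0.09, 0.15 and 0.16, and Fos, highest on array 3, had 0.50.

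The other 10 genes with a probe set were not measured. Myc gave 50.4, 15.0 and 28.9, Klf2, a relative of Klf4, 28.1, 21.2 and 18.6, and the cyclooxygenase gene Ptgs2 124, 86.2 and 11.6. Atf3, a stress-induced factor, gave 136, 159 and 145, and Ier3 gave 94.0, 176 and 202, passing on 2 arrays.

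None of the 18 measured genes of this list had arrays more than 2-fold apart, against 12.1% of all measured probe sets. The widest log2 range was 0.97, for the growth arrest gene Gadd45b at 396, 207 and 391. Jund gave 15397, 12134 and 22552, and the other AP-1 gene Junb gave 349, 638 and 518. In limma 0 of the 18 passed at an adjusted p of 0.05, and 1, Jund, had an unadjusted p under that value, at 0.037, with an adjusted p of 0.899. The list's median log2 shift was -0.12, -0.07 and 0.09 on arrays 1, 2 and 3, and its highest values fell on array 1 for 6 genes, array 2 for 7 and array 3 for 5.

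**Figure D5:**
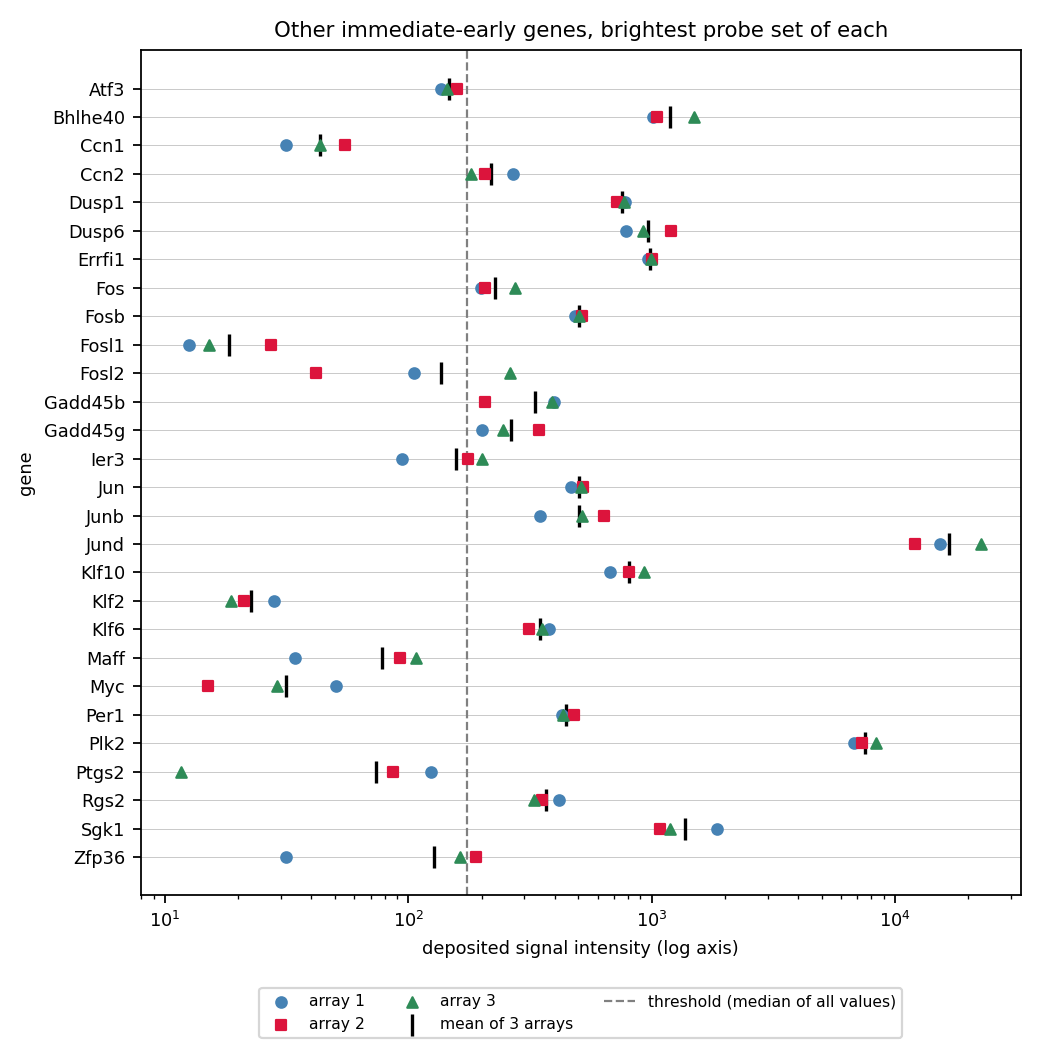
Deposited signal (log axis) of the 28 other immediate-early genes with a probe set, each at its brightest, on arrays 1, 2 and 3, in alphabetical order, with the mean as a black bar and the threshold of 174.8 dashed. On every array 18 genes lie above the line, and Gadd45b, Jund and Junb show the widest gaps among them.

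Upstream of these genes, 13 of 18 listed kinases and factors had a probe set, and 5 were above threshold on all arrays, a share near the 43.9% of all probe sets. Map2k1 and Map2k2, the kinases that activate ERK, gave 2236 ± 319 and 452 ± 85.7, and Mef2d, a factor known to act on Nr4a1 in T cells, gave 6339, 4799 and 8602. Creb1, the CRE-binding factor, gave 110.0, 56.8 and 125, and the ternary complex factor gene Elk1 gave 171, 80.7 and 166.5. Both were under threshold on every array. On array 2 both lay under the highest bacterial control there, 115, so no order of the arrays is read from them. Of 7 measured genes 3 had arrays more than 2-fold apart, against 12.1% of all measured probe sets. Crebbp, the CREB coactivator gene, gave 1314, 569 and 1157, lowest on array 2, while Mef2a gave 2953, 2352 and 1118.5 and Mef2c 247, 302 and 11.5, both lowest on array 3. Mef2c on array 3 was below the floor of 47.5 used for log2 values, so its range is a lower bound. In limma these 3 had unadjusted p of 0.025, 0.014 and 0.043, and adjusted p of 0.890, 0.760 and 0.899, so 0 of 7 passed. Nr4a1 was lowest on array 2, as was Crebbp, and the part of these factors in the Nr4a1 values was not tested.

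Partners and paralogs of the members were measured for 20 of the 23 genes with a probe set, all 20 above threshold on every array, against 43.9% of all probe sets, with each gene again at its brightest probe set. Nab1 and Nab2, which bind and restrain Egr proteins, gave 791, 647 and 625, and 438, 636 and 649.5. Nab2, itself known as an Egr target, was lowest on array 1, as was the brighter Egr1 probe set. Nab2 was highest on array 3 but Egr1 on array 2, and Nab1 was highest on array 1. A link between these values was not tested. Of the retinoid X receptors that pair with Nr4a1 and Nr4a2, Rxra gave 589, 323 and 645 and Rxrb gave 2183.5, 2549 and 1430, whereas Rxrg was under threshold at 23.3 ± 8.24. Rxra was lowest on array 2 and highest on array 3, as was Nr4a1, and Rxrb was highest on array 2 and lowest on array 3, as was Nr4a2; 3 arrays allow too few orders for such a match to single out a gene.

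The Homer1 relatives Homer2 and Homer3 gave 829, 269 and 428, and 257.5, 509 and 422, each above threshold on every array. Dlg4, the gene of the postsynaptic scaffold PSD-95, gave 423, 958 and 661. Homer2, Dlg4 and Rxra were the 3 genes of the list with arrays more than 2-fold apart, of 20 measured and against 12.1% of all measured probe sets. Their limma p was 0.017, 0.053 and 0.075 and the adjusted p 0.834, 0.944 and 0.958, so 0 of 20 passed and 1 had an unadjusted p under 0.05. The Btg2 relative Btg1 gave 327.5, 182 and 297, and Cnot8, a deadenylase gene whose product binds Btg2, gave 323, 437 and 309. The Klf4 relatives Klf9 and Klf13 gave 4385 ± 955 and 2124 ± 197, and Camk2b, whose product binds Arc, gave 8840.2 ± 279.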

How the data were processed

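The authors deposited linear signal intensities, 1 for each probe set on each array. Their program, background correction and scaling are steps not given in the sources used here. The mean signal without the lowest and highest 2% of probe sets was 500.3 on each array, so the arrays already shared a scale. The number of arrays limits the precision, and the table held 0 columns beyond the samples. Gene names came from the platform annotation, and Entrez identifiers gave the current symbols of the GRCm38.p6 table. Of 12422 probe sets that are no array control, 10833 had 1 gene, 396 several (0 of them naming a member) and 1193 none.

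For the spread, each array was scaled to a common median over measured probe sets, floored at 47.5, the 25th percentile of all values, and log2-transformed. Variances were tested with limma 3.58.1 in R 4.3.3 against a robust intensity-dependent prior, with Benjamini-Hochberg adjustment over all 6218 measured probe sets, and the test was tried on simulated data. Other scalings, floors, thresholds and priors, and leaving out each array, were tried as alternatives. In the other lists a gene was taken at its brightest probe set.

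The members and lists were chosen with earlier results of these data known. Named were the members, the 3 measured genes with the widest log2 range of each of the 3 gene lists, the 3 immediate-early genes with the highest mean, and the 3 nearest genes in likeness. Other genes were named after their values were seen.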

Additional observations from a re-analysis of the deposited data

How the results depend on the processing

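The number of member probe sets past the limma variance test was 0 under all 14 alternatives, and 0 to 2 had an unadjusted p under 0.05, depending on the setting. For the brighter Nr4a2 probe set this limma p was 0.049 without scaling and with cyclic loess, and 0.026 without array 1. It was 0.048 with the threshold at the 25th percentile and with the prior not robust. With no threshold, the 2 were the dimmer Homer1 and Klf4 probe sets, both at the floor on arrays 2 and 3. The 5 member probe sets above threshold on all arrays became 9 with the threshold at the 25th percentile of all values and 2 at the 75th, and 5 to 6 when an array was left out. The 1 probe set with arrays more than 2-fold apart became 3 with the threshold at the 25th percentile, 3 with none, 0 at the 75th, and 0 to 1 when an array was left out (0 without array 2 or array 3). These changes follow from which probe sets enter and from the array removed. The median shift changed sign under 5 of 11 alternatives on array 1, 3 of 11 on array 2 and 1 of 11 on array 3 (0.05 at the 75th percentile), and the largest move on array 1 was to 0.29 without array 2, so no direction is read from these medians. The log2 range moved by more than its SD in 6 of 66 cases, each on leaving out an array. With no threshold, the count above it could not be made. No paired analysis was possible because there is 1 group. Signals near the bacterial controls limit what can be said of Egr2, Homer1 and Klf4.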
